A study of Mus musculus with 10 samples.

Results

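The hepatic transcriptome of mice that later failed to respond to obeticholic acid (OCA), a synthetic bile acid that activates the farnesoid X receptor (FXR), was compared with that of mice later given vehicle, before any mouse had been dosed. The comparison holds 7 of the 10 liver biopsies of the series: 4 of later non-responders and 3 of the vehicle group, chosen by their titles. Every mouse was a wild-type C57BL/6 animal with diet-induced fatty liver, biopsied after 12 weeks of western diet. Responders were defined by the NAFLD activity score at the end of treatment, so the non-responder label is an outcome that did not exist at the time of biopsy, and the vehicle group is not divided by outcome. The 3 biopsies of later responders enter only where named. Each biopsy is treated as 1 mouse, as the titles number them. In a whole liver biopsy, fewer cells of a type and less RNA per cell cannot be told apart.

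The liver makes bile acids from cholesterol by a classic route that starts with Cyp7a1 and an alternative route in which Cyp7b1 acts after Cyp27a1. Bile acids activate FXR (Nr1h4), which pairs with Rxra and induces the repressor Nr0b2, and Nr0b2 lowers Cyp7a1. Hepatocytes also secrete most plasma proteins and much of the apolipoprotein that carries lipid out of the liver.

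Totals ran from 40432530 to 76529328 counts per biopsy over 10913 genes. The ribosomal RNA precursor Rn45s led the counts of every biopsy. Hepatocyte markers were present at a summed 8334 to 10370 CPM (counts scaled to the size of each library) in the vehicle group and 9606 to 11680 CPM in non-responders, with all 12 listed markers tested. Albumin (Alb), the main secreted protein of hepatocytes and usually among the most abundant liver mRNAs, ranked only 46 to 108 of 10913 genes by deposited FPKM. B2m, the light chain of class I molecules, ranked 2204 to 5054, whereas the class I heavy chain H2-K1 ranked 6 to 17. How the whole counts were derived is not stated, so the levels of secreted protein and class I genes below are in doubt to this extent. On the first principal component (32.4% of the variance) non-responder 4 lay at 64.99, and the other 6 biopsies lay between -28.11 and 9.153.

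Of 10832 genes tested, 10 passed an adjusted p of 0.05 (edgeR quasi-likelihood test, Benjamini-Hochberg adjustment), which is 0.0923% of the genes tested. In non-responders 9 of them rose (0.0831%) and 1 fell (0.00923%). They were the RNA subunit of RNase P (Rpph1), the secreted ribonuclease Rnase4, the angiotensin precursor Agt, the basement membrane collagen Col18a1, the class I MHC genes H2-Q9 (higher) and H2-L (lower), Ptms, Spsb2, Mir6236 and 8430408G22Rik (listed by RefSeq as Depp1). An unadjusted p under 0.05 was reached by 886 genes higher in non-responders (8.18%) and 702 lower (6.48%). The groups did not overlap for 971 genes higher (8.96%) and 796 lower (7.35%). The counts of list members given below stand against these shares of all genes. The median log2 fold change over all genes was -0.0038.

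**Figure D1:**
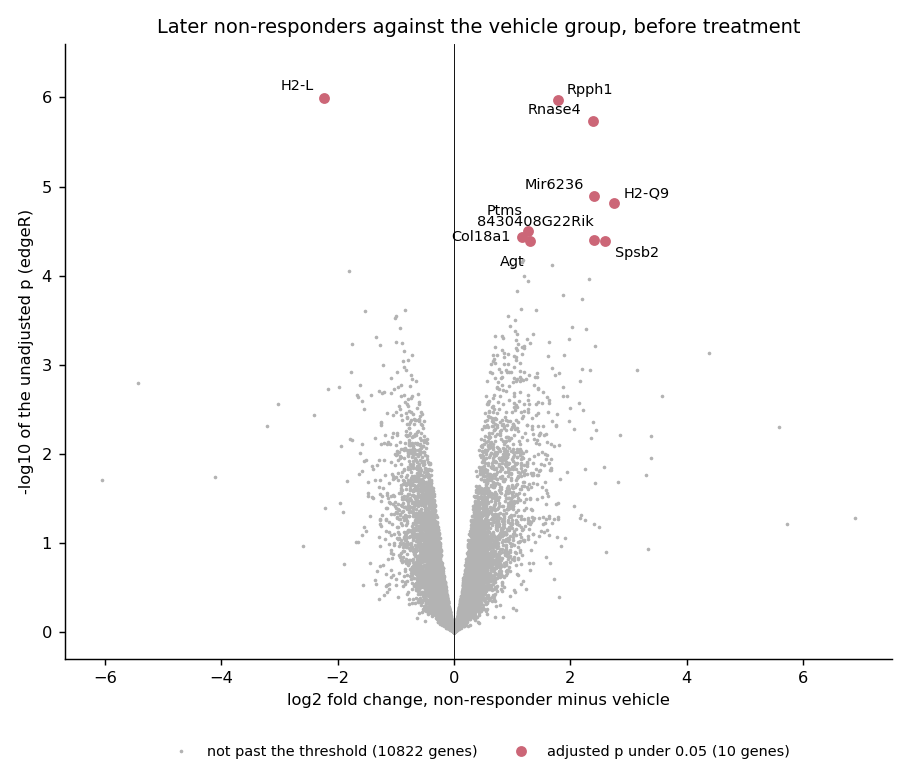
Each point is 1 of 10832 genes, with the log2 fold change of non-responders over the vehicle group on the horizontal axis and the -log10 of the unadjusted edgeR p on the vertical axis. The 10 genes past the threshold are named: 9 lie on the right, at log2 values from 1.17 to 2.75, and H2-L lies on the left at -2.23.

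The sequences of the loci with the smallest p are shown where the reference tables hold them. Rnase4 and Rpph1 each have a neighbor that bears on their counts, and for Mir6236 the mature sequence is shown because it was not what the library counted. Rnase4 and Ang, both secreted ribonucleases, are listed by RefSeq with 1 start on chromosome 14. The 250 bases before that start (GRCm38.p6, chr14:51090827-51091076, plus strand) are given in lower case throughout:
Rnase4 and Ang: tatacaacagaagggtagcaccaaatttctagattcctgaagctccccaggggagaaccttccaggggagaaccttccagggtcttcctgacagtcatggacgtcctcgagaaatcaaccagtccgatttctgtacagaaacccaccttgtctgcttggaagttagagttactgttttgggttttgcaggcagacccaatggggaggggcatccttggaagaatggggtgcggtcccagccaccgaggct
Rpph1 lies head to head with Parp2, a DNA repair enzyme. The 148 bases between their starts (chr14:50807768-50807915, minus strand, read toward Rpph1) hold the octamer ATGCAAAT, the word found upstream of many small nuclear RNA type genes, in capitals:
Rpph1: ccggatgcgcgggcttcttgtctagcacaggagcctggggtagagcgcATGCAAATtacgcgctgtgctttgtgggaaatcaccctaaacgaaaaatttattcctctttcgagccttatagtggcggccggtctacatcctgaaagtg
The octamer, searched on both strands, occurs in 1.74% of the 32851 promoter windows of 300 bases in the RefSeq table. The word TATAAA occurs in 13.6% of them and in neither window shown here. Mir6236 is annotated on chromosome 9, and its mature sequence (chr9:110281353-110281371, plus strand) is given with the seed, bases 2 to 8, in capitals:
miR-6236: gCCGUCGCcggcagucagg

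Rpph1 stood at 29.9, 39.6 and 31.2 CPM in the vehicle group and at 118, 101, 125 and 118 CPM in non-responders (log2 fold change 1.78 ± 0.17 SE, edgeR adjusted p = 0.0057). All non-responder biopsies lay far above all vehicle biopsies. RNase P trims the 5′ ends of transfer RNA precursors. Parp2, which shares the printed interval, overlapped between the groups (16.0 to 21.5 CPM in the vehicle group, 12.0 to 19.1 CPM in non-responders; log2 fold change -0.35, adjusted p = 0.50). Rpph1 overlaps the annotated gene Ccnb1ip1, so reads of the pair may not be told apart there.

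Rnase4 was at 6.35, 8.19 and 7.47 CPM in the vehicle group. In non-responders it was at 31.3, 52.5, 31.7 and 37.5 CPM (log2 fold change 2.38 ± 0.24 SE, edgeR adjusted p = 0.0067). Its partner Ang, at 2.06 to 4.59 CPM in the vehicle group and 4.36 to 8.81 CPM in non-responders, overlapped between the groups and did not pass (log2 fold change 0.91, adjusted p = 0.28). Because these genes overlap, their counts were also added: the sum was 8.41 to 12.1 CPM in the vehicle group and 36.0 to 57.7 CPM in non-responders, again without overlap.

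H2-L and H2-Q9 are class I MHC symbols, and each has near-identical copies among which reads may be divided. Their values are therefore counts assigned to a symbol, and whether they come from that gene was not tested. Counts under H2-L fell, from 253, 238 and 369 CPM in the vehicle group to 63.6, 60.4, 73.7 and 46.4 CPM in non-responders (log2 fold change -2.23 ± 0.21 SE, edgeR adjusted p = 0.0057). H2-Q9 was at 56.8, 32.7 and 21.6 CPM in the vehicle group and at 289, 188, 322 and 200 CPM in non-responders (log2 fold change 2.75 ± 0.35 SE, adjusted p = 0.033). Neither symbol matched the GENCODE annotation, so no position is given, and both calls are uncertain for this reason. H2-L added to its close relative H2-D1 gave 2639 to 3430 CPM in the vehicle group and 2156 to 3369 CPM in non-responders. The 9 H2-Q genes together gave 9400 to 12000 CPM and 7508 to 14830 CPM, respectively, so both sums overlapped between the groups. In later responders H2-L stood at 272, 138 and 44.2 CPM (scaled over 10 biopsies), which spans both other groups.

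Mir6236 was at 17.99, 21.4 and 15.6 CPM in the vehicle group and at 71.4, 76.0, 85.5 and 158 CPM in non-responders (log2 fold change 2.41 ± 0.30 SE, edgeR adjusted p = 0.033). Non-responder 4 was the highest, as it was for the share of Rn45s. A library of long RNA fragments measures the precursor locus and not the mature miRNA, so these counts do not give the level of miR-6236.

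Agt, the precursor of the angiotensins, was at 7.89, 8.81 and 8.54 CPM in the vehicle group and at 20.6, 18.3, 19.8 and 24.4 CPM in non-responders (log2 fold change 1.30 ± 0.19 SE, edgeR adjusted p = 0.044). Col18a1, whose C-terminal fragment is endostatin, was at 53.4, 51.5 and 43.3 CPM against 132, 99.3, 105 and 107 CPM (log2 fold change 1.17 ± 0.17 SE). Both genes were tight within each group, and the lowest non-responder lay well above the highest vehicle biopsy.

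Ptms, the small acidic nuclear protein parathymosin, was at 78.8, 86.2 and 79.1 CPM in the vehicle group and at 176, 176, 253 and 178 CPM in non-responders (log2 fold change 1.27 ± 0.18 SE). Spsb2, a substrate adaptor of a ubiquitin ligase, was at 1.25, 1.54 and 0.655 CPM against 4.93, 6.03, 8.10 and 8.78 CPM (log2 fold change 2.60 ± 0.37 SE). It overlaps Tpi1, a glycolytic enzyme of far higher count, whose log2 fold change was 0.02. Depp1 (8430408G22Rik), which FOXO factors induce in human cells, was at 0.489, 0.883 and 0.519 CPM against 3.80, 2.85, 3.72 and 2.96 CPM (log2 fold change 2.40 ± 0.35 SE). The adjusted p of Agt, Col18a1, Ptms, Spsb2 and Depp1 was 0.044 in each case.

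**Figure D2:**
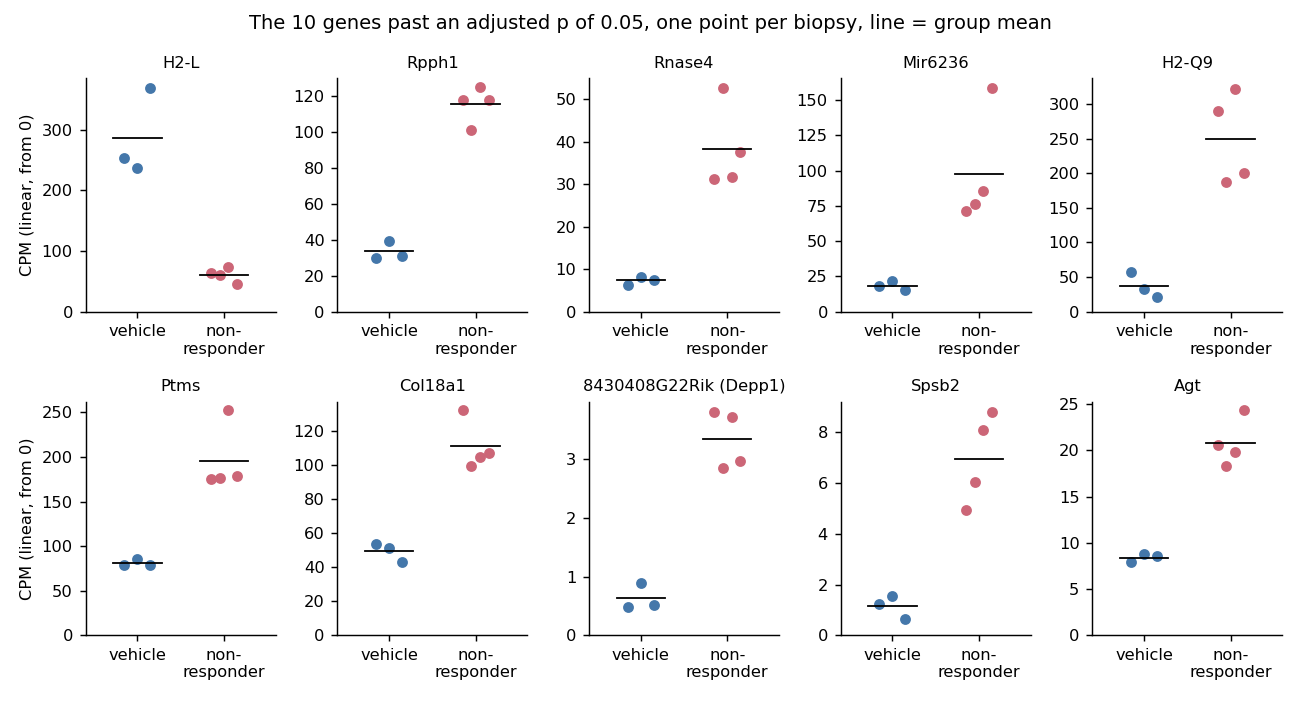
CPM on a linear axis from 0 for each of the 10 genes past the threshold, with 1 point for each of the 3 vehicle and 4 non-responder biopsies and a line at the group mean. The groups do not overlap in any panel, and H2-L is the 1 gene with the vehicle biopsies on top.

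These calls differed in how far they rested on single biopsies. H2-L stayed past the threshold in 7 of 7 fits that each left out 1 biopsy, Rpph1 in 6, Rnase4 in 5, Mir6236 in 3, H2-Q9 in 2 and Ptms in 1. Agt, Col18a1, Spsb2 and Depp1 passed in 0 of the 7, with adjusted p between 0.054 and 0.25. Leaving out vehicle 2 or vehicle 3 left 2 calls in each case (H2-L with Rpph1, and H2-L with Zfp708), whereas leaving out non-responder 4 left 9, of which 5 were among the 10. With the share of Rn45s as a covariate the count was 0 (1089 genes had an unadjusted p under 0.05), and the log2 fold changes of the 10 genes kept their signs, at -1.43 for H2-L and 0.99 to 2.61 for the others. That share did not overlap between the groups, so share and group can hardly be told apart in this fit, here and wherever it is named below.

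Later responders are set beside these values, with the same 3 vehicle biopsies as reference, a comparison in which 568 of 10785 genes passed (5.27%). Against the vehicle group the log2 fold change in responders was 2.56 for Rpph1, 2.47 for Rnase4, 3.37 for Mir6236, 1.64 for H2-Q9, 1.89 for Ptms, 1.34 for Col18a1, 2.56 for Depp1, 2.92 for Spsb2 and 1.54 for Agt. For H2-L it was -0.85 (edgeR adjusted p = 0.41). In the test of responders against non-responders 0 of 10826 genes passed (0.0%; 1529 had an unadjusted p under 0.05), among them H2-L at 1.39 (adjusted p = 0.28) and H2-Q9 at -1.09 (adjusted p = 0.18).

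Just outside the threshold, the named genes with higher values in non-responders included the lipid carrier Apoe, the V-ATPase subunit Atp6v1g1, the steroid enzyme Hsd3b3, the centrosomal protein Tacc1, the serpin Serpina3k and the lipase inhibitor Angptl8. Apoe was at 1473, 1901 and 2007 CPM in the vehicle group and at 3893, 3681, 3763 and 4883 CPM in non-responders (log2 fold change 1.18, edgeR adjusted p = 0.063). Angptl8 had the largest log2 fold change of these, 2.31, at 0.725 to 1.71 CPM against 4.85 to 8.34 CPM (adjusted p = 0.070). Their groups did not overlap, but none of the 6 passed.

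The genes with lower values and the smallest p after H2-L did not pass either. Cav1, the coat protein of caveolae, was at 5.20, 8.52 and 8.80 CPM in the vehicle group and at 2.70, 2.25, 1.85 and 1.83 CPM in non-responders (log2 fold change -1.80, edgeR adjusted p = 0.063). The aminopeptidase Lnpep (-0.84), the polyamine enzyme Odc1 (-0.9999), the lipid transporter Abca2 (-0.92), mitochondrial thioredoxin Txn2 (-1.27) and coagulation factor F5 (-0.71) had adjusted p of 0.109 to 0.126. Snora23 and Snord16a, guides of RNA modification, had log2 fold changes of -1.52 and -1.76, and Snord16a lies within Rpl4. Tmem120a (-1.01), Dram2 (-0.99), Tram1 (-0.89), Tmbim1 (-0.85) and Ube2e3 (-0.80) also belonged to this group.

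Among the 25 tested genes of secreted hepatocyte proteins, 1 rose (Agt) and 0 fell, with a median log2 fold change of 0.36. Of these, 9 were higher and 1 lower at an unadjusted p under 0.05, and 10 were higher without overlap (0 lower), or 40% of the list against 8.96% of all genes. Without non-responder 1 the list's median was 0.21. Alb was at 939, 1016 and 1110 CPM in the vehicle group and at 2028, 1550, 1963 and 1675 CPM in non-responders (log2 fold change 0.82, edgeR adjusted p = 0.13). The fetuins Ahsg (log2 fold change 1.04) and Fetub (1.42) and the protease inhibitor Serpina1c (1.07) also had groups that did not overlap and did not pass.

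None of the 15 genes of the apolipoprotein list passed in edgeR. An unadjusted p under 0.05 was reached by 9, all higher, where 8.18% of all genes were higher. DESeq2 called 6 of the 15 higher, against 2.41% of all genes, and limma on the deposited log2 values called 1. The list's median log2 fold change was 0.84, and 10 were higher without overlap, or 66.7% of the list against 8.96% of all genes. The list also holds Lcat and Apobec1, which act on lipoproteins and on Apob mRNA. Apoa2, a structural protein of high-density lipoprotein, was at 24.6, 49.2 and 44.6 CPM in the vehicle group and at 101, 95.2, 91.5 and 132 CPM in non-responders (log2 fold change 1.41, edgeR adjusted p = 0.11). Apoc1 (1.17), Apoc3 (1.08), Apoc4 (1.23), Apoh (0.84) and Apoa1 (0.60) were likewise higher without overlap. Apob, which forms the very-low-density particle itself, had a log2 fold change of -0.01. Leaving out any 1 biopsy kept the list's median between 0.78 and 0.97, and with the share of Rn45s as a covariate it was 0.55.

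**Figure D3:**
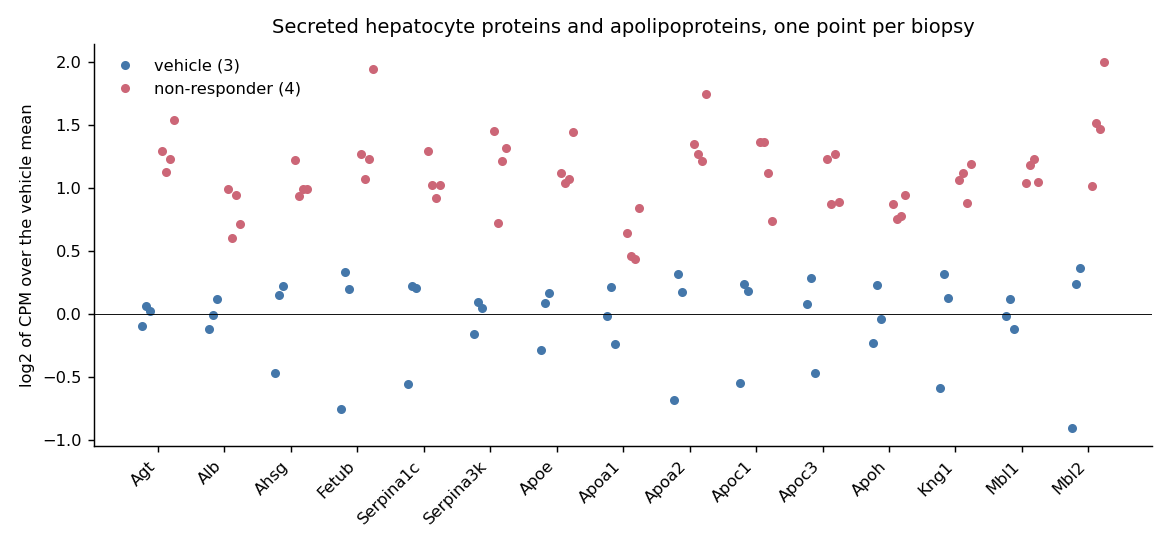
The log2 of CPM over the vehicle mean for 15 genes of secreted proteins, chosen for the plot after their values were seen, with 1 point for each vehicle and non-responder biopsy. All 4 non-responders lie above all 3 vehicle biopsies for every gene shown, and of these genes Agt passed the threshold.

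The complement and coagulation list (43 genes tested) held values in both directions. At an unadjusted p under 0.05, 14 were higher and 5 lower, and the median log2 fold change was 0.04. Without overlap 16 were higher (37.2%, against 8.96% of all genes) and 4 lower (9.3%, against 7.35%), so more genes stood apart on the high side. The kininogen Kng1 (1.07) and the mannose-binding lectins Mbl1 (1.13) and Mbl2 (1.54) stood on the high side and F5 on the low side, with edgeR adjusted p of 0.13 to 0.15. Of 26 acute phase genes, 5 were higher and 5 lower at an unadjusted p under 0.05, where 8.18% and 6.48% of all genes were. The acute phase median log2 fold change was -0.08, and single values ran from -4.11 to 1.47. Serpina3m (1.04), Serpina3n (1.31) and Crp (1.17) had higher values. The metallothionein Mt2 was at 38.2, 10.2 and 7.95 CPM in the vehicle group and 2.82 to 5.09 CPM in non-responders (log2 fold change -2.17). No member of either list passed.

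Hepatocyte transcription factors gave 4 genes higher and 1 lower of 16 at an unadjusted p under 0.05, with a median log2 fold change of 0.29 (0.15 without vehicle 1 and 0.16 without non-responder 4) and no gene past the threshold. Single values ran from -4.11 to 1.98. Hnf4a, a central regulator of hepatocyte genes, was at 447, 399 and 543 CPM in the vehicle group and at 860, 734, 713 and 665 CPM in non-responders (0.68, edgeR adjusted p = 0.15). Foxa2 (1.88), Foxa3 (0.90) and Onecut1 (1.98) did not overlap. Onecut1 spread widely among non-responders, from 106 to 603 CPM.

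Bile acid genes, the subject of the study, gave no call in edgeR. Cyp7a1, which sets the pace of the classic route, was at 20.2, 295 and 694 CPM in the vehicle group and at 187, 281, 201 and 118 CPM in non-responders, so the vehicle biopsies spanned all of the non-responders. Its log2 fold change was -0.77 ± 0.91 SE, and it turned to 0.32 without vehicle 3. Cyp8b1, which makes cholic acid, was at 14.9 to 38.7 CPM against 17.1 to 43.7 CPM (0.11 ± 0.42 SE), and Akr1d1 was at 26.1 to 63.8 CPM against 32.4 to 67.6 CPM (-0.04 ± 0.33 SE). Neither sign was stable when single biopsies were left out.

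On the alternative route, Cyp7b1 was at 17.2, 15.3 and 11.9 CPM in the vehicle group and at 10.2, 5.26, 6.88 and 9.97 CPM in non-responders, without overlap (log2 fold change -0.88 ± 0.27 SE, edgeR adjusted p = 0.20). Rora, a nuclear receptor known to regulate Cyp7b1, was at 148, 98.8 and 92.0 CPM against 72.8, 59.5, 83.4 and 60.0 CPM (-0.71, adjusted p = 0.19). Cyp27a1 (0.04) and Cyp39a1 (0.00) lay at 0 within their errors of 0.15 and 0.38. Nr1h4 was at 4.70, 8.03 and 6.26 CPM against 9.09, 11.8, 8.65 and 14.4 CPM (0.79, adjusted p = 0.23), Nr0b2 had a log2 fold change of 0.49, Rxra of 0.24 and the oxysterol receptor Nr1h3 of 0.41. None of the 11 passed.

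Of 9 genes for bile acid side chains and conjugation, 4 were higher without overlap (44.4%, against 8.96% of all genes) and 2 lower (22.2%, against 7.35%). The higher ones were the conjugating enzyme Baat (log2 fold change 1.11), the ligase Slc27a5 (0.83), Acnat1 (1.33) and the racemase Amacr (0.93). The lower ones were the peroxisomal transporter Abcd3 (-0.70) and the peroxisomal thiolase gene Scp2 (-0.24). Among 15 transport genes, the phospholipid exporter Abcb4 was at 1006 to 1325 CPM in the vehicle group and 601 to 780 CPM in non-responders (-0.73, edgeR adjusted p = 0.13), and the uptake carrier Slco1b2 had a log2 fold change of 0.68. None passed in edgeR. DESeq2 called Baat, Slc27a5 and Acnat1 higher and Abcd3 and Abcb4 lower, with adjusted p of 0.0096 to 0.0448.

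The cholesterol synthesis list (26 genes) had a median log2 fold change of 0.37, with none past the threshold. At an unadjusted p under 0.05, 8 were higher and 2 lower, where 8.18% and 6.48% of all genes were. Sc5d, a desaturase near the end of the route, was at 4.92, 8.02 and 7.88 CPM in the vehicle group and at 19.6, 13.1, 15.7 and 15.8 CPM in non-responders (1.21, edgeR adjusted p = 0.13). Nsdhl (1.64) and the regulator Srebf2 (0.95) also did not overlap. The median moved with non-responder 4 (0.17 without it), and with the share of Rn45s as a covariate it was -0.31, the opposite sign. In the lipogenesis list the insulin-responsive gene Thrsp (1.19) and the regulator Srebf1 (0.91) led 5 genes higher and 1 lower of 18 at an unadjusted p under 0.05, with none past the threshold.

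Besides H2-Q9, the peptide-loading genes Tapbp (log2 fold change 0.89), Calr (0.70) and Canx (0.59) and the class I transactivator Nlrc5 (1.28) had higher values without overlap, in a list of 26 genes with a median of 0.02. This list does not hold H2-L. At an unadjusted p under 0.05, 7 of its members were higher and 3 lower. Without overlap 7 were higher (26.9%, against 8.96% of all genes) and 2 lower (7.69%, against 7.35%). The interferon response list (38 genes) had a median of 0.36 and none past the threshold. In this list 10 were higher and 1 lower at an unadjusted p under 0.05, where 8.18% and 6.48% of all genes were. Its members with the smallest p were Parp9 (1.04), Ifi27 (1.43), Parp14 (1.01) and Usp18 (1.72), all at low levels, the highest being Parp14 at 1.26 to 2.37 CPM in the vehicle group and 3.22 to 4.34 CPM in non-responders. Over the 13 members with at least 100 counts in every biopsy the median was -0.13, the opposite sign.

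Rn45s took 6.58%, 6.87% and 3.70% of the counts in the vehicle group and 13.1%, 10.97%, 14.2% and 23.5% in non-responders, so that the groups did not overlap. The means were 5.72% ± 1.75 (SD, n = 3) and 15.4% ± 5.52 (SD, n = 4), a difference of 1.42 on the log2 scale. A two-sided exact permutation test over the 7 biopsies, which doubled the p of a single side, gave p = 0.0571. With this doubling, groups of 3 and 4 cannot give a smaller one. In the fit across genes Rn45s had a log2 fold change of 1.62 (edgeR adjusted p = 0.13). Ribosomal RNA has no poly(A) tail of the mRNA kind, and the labels name mRNA library kits. All 7 tested structured noncoding RNAs had log2 fold changes above 0, with a median of 0.77. The vault RNA Vaultrc5 was at 1.23 to 2.94 CPM against 4.18 to 6.94 CPM (1.45, adjusted p = 0.14), whereas Rmrp, the sister RNA of Rpph1, overlapped (0.28). Leaving Rn45s out of the library sizes gave the same count of 10 calls.

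**Figure D4:**
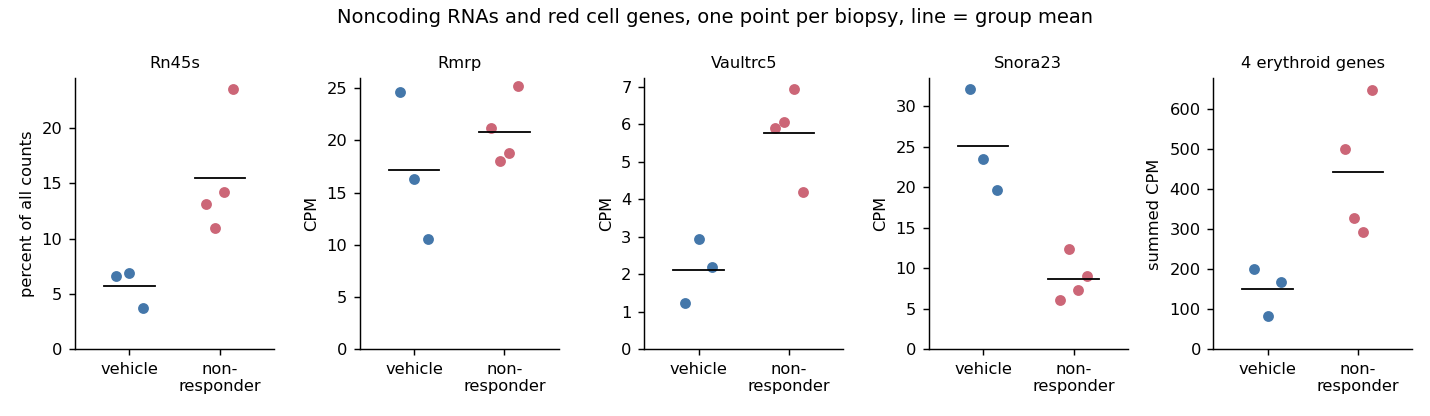
The percent of counts taken by Rn45s, the CPM of Rmrp, Vaultrc5 and Snora23, and the summed CPM of 4 erythroid genes, with 1 point per biopsy and a line at the group mean, on linear axes from 0. The groups overlap for Rmrp and in no other panel, Snora23 is the panel with the vehicle biopsies on top, and the erythroid sum overlaps once Hbb-b1 is taken out.

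The proteins of translation and RNA processing did not follow 1 direction. Of 82 cytosolic ribosomal protein genes, 62 had log2 fold changes below 0, with a median of -0.25 and none past the threshold. At an unadjusted p under 0.05, 16 were lower and 4 higher, where 6.48% and 8.18% of all genes were. Rps14 (-0.76), Rpl8 (-0.93), Rpl37 (-0.78) and Rps29 (-1.18) lay on the low side and Rpl34 (0.85) on the high side. Ribosome biogenesis genes (49) had a median of 0.21. Splicing factors (114), among them Prpf6 (0.64) and Luc7l3 (0.61), had a median of 0.13, with 74 above 0 and 40 below. At an unadjusted p under 0.05, 18 of them were higher and 1 lower, and none passed the threshold. Without overlap 17 were higher (14.9%, against 8.96% of all genes) and 2 lower (1.75%, against 7.35%). Without non-responder 4 the ribosomal protein median was -0.09, and with the share of Rn45s as a covariate it was 0.41.

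Col18a1 was the only 1 of 39 collagen and matrix genes to pass, and the list's median was -0.09 (-0.24 to 0.0024 when each biopsy was left out, the highest without vehicle 1 and the lowest without vehicle 3). At an unadjusted p under 0.05, 7 members were lower and 2 higher, where 6.48% and 8.18% of all genes were. The lower ones included the laminins Lamb1 (log2 fold change -0.73) and Lama2 (-0.61) and the crosslinking enzymes Loxl1 (-1.05) and Loxl2 (-0.99). Of 45 phase II conjugation genes 8 were lower and 3 higher at the same cut, against the same shares. The phase II list had a median of -0.19 (-0.07 without vehicle 2 and -0.28 without vehicle 1). Gclc, which starts glutathione synthesis, was at 341 to 433 CPM in the vehicle group and 170 to 253 CPM in non-responders (-0.82, edgeR adjusted p = 0.13). The phase II median was 0.35 with the share of Rn45s as a covariate.

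Cell type markers gave no gene past the threshold in edgeR. The markers of lipid-associated macrophages and monocytes had a median log2 fold change of -0.53, with 9 of 10 tested below 0, and summed to 302 to 412 CPM in the vehicle group and 204 to 314 CPM in non-responders, which overlap. With the share of Rn45s as a covariate the median was -0.19. Spp1, a secreted matrix protein of these macrophages and of bile duct cells, was at 17.3, 16.9 and 18.7 CPM against 12.98, 12.1, 9.14 and 6.59 CPM (-0.79, edgeR adjusted p = 0.20), and the class II gene H2-Ab1 had a log2 fold change of -0.72. Kupffer cell markers summed to 167 to 206 CPM and 185 to 204 CPM, and sinusoidal endothelial markers to 1114 to 1313 CPM and 977 to 1197 CPM, also overlapping. In the endothelial list Clec4g (2.34) and Egfl7 (1.29) had higher values at under 2.5 CPM, and Mrc1 lower values (-0.62).

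Of the erythroid markers, only the globin Hbb-b1 separated the groups. The 4 tested genes summed to 200.8, 82.7 and 168 CPM in the vehicle group and to 500.2, 327, 292 and 648 CPM in non-responders. Hbb-b1 was at 84.3, 5.54 and 11.4 CPM against 340.2, 179, 188 and 239.8 CPM (edgeR adjusted p = 0.25). Without it the sums overlapped, at 77.2 to 156 CPM and 104 to 408 CPM. Hba-a2 was at 160.8 CPM in non-responder 4 and below 1 CPM in the other 6 biopsies, and the list's median log2 fold change of 1.68 was 0.23 without non-responder 4. Only 4 of 11 listed markers were tested, as the table holds genes counted in all biopsies. Of T and NK cell markers 1 of 15 was tested, of B cell markers 1 of 9 and of neutrophil markers 0 of 10, so these cells were not assessed. The part of blood content in the results above was not tested.

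**Figure D5:**
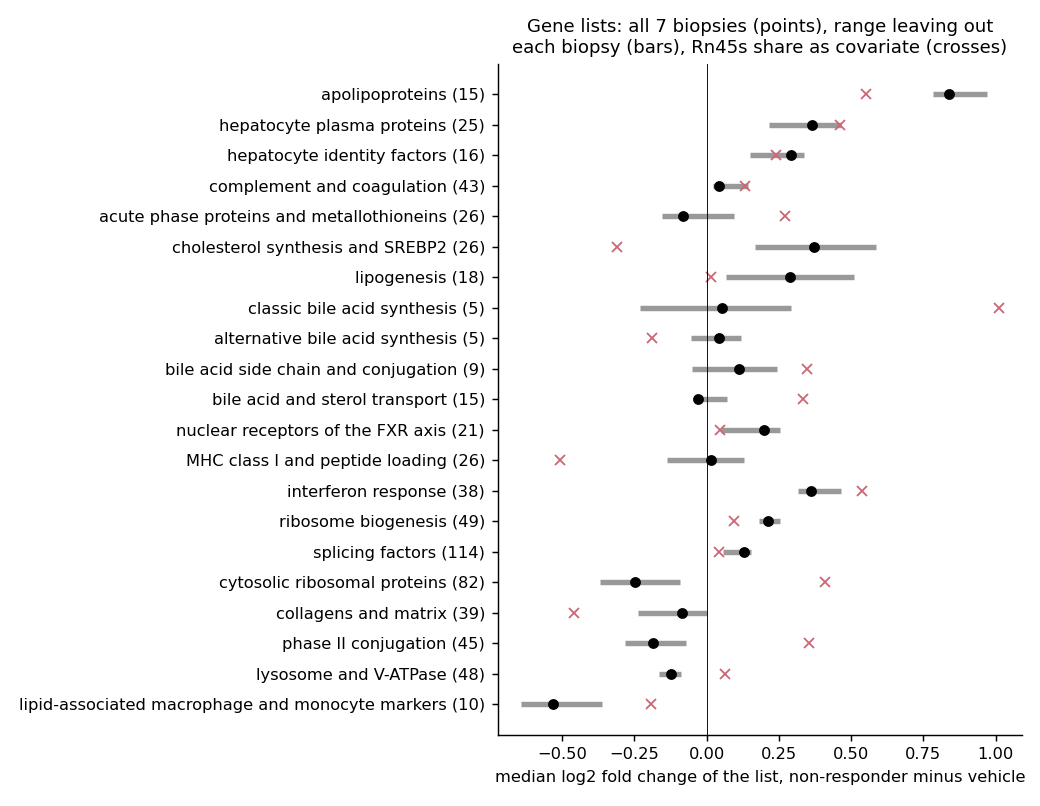
Median log2 fold change of 21 gene lists (number of genes tested in brackets), with points for all 7 biopsies, bars for the range when each biopsy is left out in turn and crosses for the fit with the share of Rn45s as covariate. Apolipoproteins lie highest at 0.84 and macrophage markers lowest at -0.53. The crosses lie on the other side of 0 for cytosolic ribosomal proteins, cholesterol synthesis, phase II conjugation, MHC class I and acute phase genes. They also do so for the lysosome, alternative bile acid synthesis and bile acid transport lists.

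DESeq2 called more genes than edgeR on the same counts, 382 against 10, and so gave calls in lists where edgeR gave none. Over all genes it called 2.41% higher and 1.12% lower, against which the following counts stand. With it 7 secreted hepatocyte proteins were higher, 7 complement and coagulation genes were higher and 2 lower, 4 acute phase genes were higher and 1 lower, and 4 hepatocyte transcription factors, 5 cholesterol synthesis genes and 2 interferon response genes were higher. For cytosolic ribosomal proteins it called 1 higher and 5 lower, and for matrix genes 1 higher and 3 lower. Of the cell type markers it called 4 of 12 for hepatocytes higher (Ahsg, Alb, Hnf4a and Serpina1c), 2 of 17 for sinusoidal endothelium higher (Clec4g and Egfl7) and, of 15 for stellate cells and fibroblasts, Ecm1 higher and Reln lower, and for macrophage, Kupffer cell and erythroid markers 0.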

How the data were processed

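RNA from the liver biopsies was sequenced as mRNA libraries, and the labels name both a stranded TruSeq kit and a SMARTER kit. According to the study's methods the reads were checked with FastQC 0.11.7, trimmed with Trimmomatic 0.38, aligned to mm10 with HISAT2 2.1.0 and assembled with StringTie, with no version stated. The counting tool and its strand setting are not stated. The authors deposited 1 table with read counts as whole numbers, FPKM, and quantile-normalized log2 values of FPKM + 1 for genes with a count in every biopsy, so the smallest count was 1. The authors' own folds (a score), p-values and adjusted p-values stand beside them and were not used. Columns of per-sample values left unmapped numbered 0. Totals, 40432530 to 76529328 counts, were large for most named genes, so the spread between mice sets the precision.

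The counts of the 7 biopsies were tested with edgeR 4.0.16 in R 4.3.3 (TMM scaling, filterByExpr with a minimum count of 10 and total of 15, robust quasi-likelihood test, Benjamini-Hochberg threshold 0.05). This removed 81 of 10913 genes. CPM values use the same TMM scaling. The share of Rn45s was compared with an exact permutation test over 35 assignments. Alternatives were DESeq2 1.42.0, limma 3.58.1 on the deposited log2 values and on log2(FPKM + 0.1), other scalings and filters (at least 100 counts in every biopsy), Rn45s left out or its share as a covariate, a loess offset for transcript length (span 0.5), a replicate block, and each biopsy left out. Median chi-square values between biopsies of a group were 9.31 to 33.98 per gene against 0.455 from counting alone, so no library was a repeat. On simulated counts for this comparison (10822 genes) edgeR found 41% of the genes set to a fold change of 2 and 86% of those set to 4, and called 8 unchanged genes. The simulation changed 100 genes at each fold and so gave far more calls than the 10 of the real fit. More calls loosen the Benjamini-Hochberg cut, so these rates do not give the power of the real comparison.

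Gene lists and the comparison itself were chosen with earlier results of these data known. Genes named are the 15 with the smallest p in each direction with a mean of at least 1 CPM and no overlap, 11 bile acid genes, the members with the smallest p in each list (at most 4), members past the threshold, and Rn45s. Others (Ang, Parp2, Tpi1, H2-D1, Apoa1, Apob, Rmrp and Snord15b among them) were named after their values were seen. Some genes that the rule names are not reported here. Positions are GENCODE M21 on GRCm38, to which 10879 of 10913 symbols matched, and sequences are RefSeq GRCm38.p6.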

Additional observations from a re-analysis of the deposited data

Results flagged for a closer look

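For 130 values of the 4 non-responders (the named genes, the total and the share of Rn45s), the highest or lowest biopsy was set against the other 3 by Dixon's criterion, and 9 were marked. Chance marks about 1 in 20 groups. In non-responder 4 the biopsy stood apart for Mir6236 at 158 CPM (others 71.4 to 85.5 CPM), Snord16a at 8.45 CPM (others 3.03 to 3.80 CPM), Nsdhl at 19.7 CPM (others 6.62 to 7.33 CPM), Usp18 at 0.526 CPM (others 0.86 to 0.925 CPM) and Hba-a2 at 160.8 CPM (others 0.146 to 0.877 CPM). In non-responder 3 it stood apart for Ptms at 253 CPM (others 176 to 178 CPM), Atp6v1g1 at 135.5 CPM (others 95.4 to 101.5 CPM), Parp2 at 19.1 CPM (others 12.0 to 13.1 CPM) and Calr at 870.1 CPM (others 1197 to 1252 CPM). The vehicle group, with 3 biopsies, was not examined in this way.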

How the results depend on the processing

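The count of 10 calls (9 higher, 1 lower) stayed within 1.5 times under another scaling, without Rn45s, without a filter, with the stricter filter, with both limma fits and with the spread shared over 10 biopsies, although the last gave 12 higher and 0 lower. DESeq2 gave 382 (261 higher, 121 lower), the share of Rn45s as a covariate gave 0, with 0 in either direction, and the length offset gave 9, of which 2 were lower. Leaving out each biopsy gave 2 to 9 calls, 0 to 7 higher and 1 to 2 lower. With a replicate block there were 3 calls (H2-L, Rnase4 and Mir6236), 2 of them higher. Same-numbered biopsies did not deviate together (r = -0.047, 0.049 and -0.074), so they share only a number. The limma fit on log2(FPKM + 0.1) moved the median of all genes to -0.16. The difference in Rn45s share stayed above 0 on the log10 and percent scales. It also did so when each biopsy was left out (1.14 to 1.58 on the log2 scale). The same permutation test then gave p of 0.1 to 0.133, the smallest that its doubling allows at those sizes.

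Among the named genes, 2186 of 2406 alternative values kept direction and side of the threshold, 95 passed newly (83 of them with DESeq2), 71 lost the call and 54 changed sign. With the share of Rn45s as a covariate the log2 fold changes became 1.76 for Cyp7a1, -0.70 for Cyp8b1, 1.01 for Akr1d1, -0.19 for Cyp27a1, 0.59 for Cyp39a1, -0.60 for Nr0b2, -0.38 for H2-D1, -0.25 for Srebf2, 0.29 for Rps29, -0.66 for Rmrp, 0.070 for Loxl2, -6.90 for Hba-a2 and 0.049 for Apob. With the replicate block they became 0.32 for Cyp7a1, -0.20 for Cyp8b1, 0.19 for Akr1d1, -0.054 for Cyp27a1, 0.15 for Cyp39a1, -0.087 for Hba-a2 and -0.0019 for H2-D1. The deposited log2 values gave 0.20 for Cyp7a1, 0.014 for Akr1d1 and -0.019 for Tpi1. The log2(FPKM + 0.1) values gave 0.061 for Cyp7a1, -0.084 for Cyp8b1, -0.13 for Cyp27a1, -0.11 for H2-D1 and -0.17 for Tpi1, and the length offset gave -0.019 for Tpi1 and 0.022 for Apob. With each biopsy left out the ranges were -1.33 to 0.32 for Cyp7a1, -0.19 to 0.44 for Cyp8b1, -0.35 to 0.17 for Akr1d1, -0.053 to 0.097 for Cyp27a1, -0.27 to 0.20 for Cyp39a1, -0.034 to 0.20 for H2-D1, -0.20 to 0.11 for H2-Q6, -0.14 to 0.078 for Apob and -0.056 to 0.17 for Tpi1. Because the share of Rn45s did not overlap between the groups, the fit with it as a covariate can hardly separate share from group. The cause of these changes was not tested.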

Other observations

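Small nucleolar RNAs, which guide the modification of ribosomal and spliceosomal RNA, were looked at after Snora23 and Snord16a had come up, so the family was chosen after values were seen. Of 39 tested Snord and Snora genes, 24 had log2 fold changes below 0 in non-responders and 15 above, with a median of -0.45. The median was -0.97 without non-responder 4, -0.22 without vehicle 3 and -0.94 with the share of Rn45s as a covariate, and the summed level overlapped (827 to 1099 CPM in the vehicle group, 483 to 1166 CPM in non-responders, the highest in non-responder 4). At an unadjusted p under 0.05, 15 were lower and 1 higher, where 6.48% and 8.18% of all genes were. Without overlap 11 were lower and 0 higher, where 7.35% and 8.96% of all genes were. None passed the threshold. Snora23 was at 32.1, 23.5 and 19.6 CPM in the vehicle group and at 6.09, 12.3, 7.36 and 9.06 CPM in non-responders, and Snord15b at 324, 349 and 483 CPM against 105, 140, 172 and 280.3 CPM. Many of these genes lie in introns of other genes, so their counts depend on how overlapping reads were assigned.

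Genes of fatty acid oxidation and ketogenesis had 7 of 33 higher and 0 lower at an unadjusted p under 0.05, where 8.18% and 6.48% of all genes were. The list's median log2 fold change was 0.23 (0.02 without vehicle 1, 0.37 without vehicle 2 and 0.39 without vehicle 3). The very long chain dehydrogenase Acadvl was at 97.5, 117 and 110.2 CPM in the vehicle group and at 184, 183, 180 and 159 CPM in non-responders (0.70, edgeR adjusted p = 0.13), and the liver transcription factor Creb3l3 had a log2 fold change of 0.85. At the same cut and against the same shares, 7 of 36 genes of the unfolded protein response were higher and 3 lower. Among the higher were Xbp1 (0.77) and Herpud1 (0.57). Of 24 immediate early genes 5 were higher and 0 lower, including Jun (1.14), Ier2 (1.38) and Cyr61 (1.07). The bile duct and Notch list had 6 of 19 genes lower without overlap (31.6%, against 7.35% of all genes) and 1 higher (5.26%, against 8.96%), with the smallest p for the coactivator Maml2 (-1.09). The cell cycle kinase Cdk2 (1.06), the p53 regulator Mdm2 (1.05), the glucose transporter Slc2a2 (0.67) and the lysosomal protease Ctsl (1.04) had higher values without overlap. Their lists did not rise with them. The cell cycle list had 13 genes above 0 and 17 below, and the glycolysis, fructose and glycogen list had a median of -0.0025. In the lysosome and V-ATPase list 8 of 48 were higher without overlap (16.7%, against 8.96% of all genes) and 11 lower (22.9%, against 7.35%). The complement subunit C1qa (1.33) was also higher without overlap, at under 1.5 CPM. Folr2, a marker of resident macrophages, overlapped despite a log2 fold change of 2.57. Both belong to the Kupffer cell list, in which 4 of 10 genes lay above 0 and 6 below, with a median of -0.06. In that list 1 gene was higher and 1 lower without overlap. No gene of this paragraph passed the threshold in edgeR.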
